A study of Arabidopsis thaliana with 18 samples.

Results

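The pseudo-response regulators of the circadian clock were followed in Arabidopsis shoots as 5 genes, PRR9 (AT2G46790), PRR7 (AT5G02810), PRR5 (AT5G24470), PRR3 (AT5G60100) and TOC1 (AT5G61380, also called PRR1). They were taken by gene identifier and are 5 of the 37336 genes in the count tables. All 5 passed the filter on low counts, and each had at least 10 counts in every library.

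Pseudo-response regulators carry a receiver-like domain that has lost the phosphate-accepting residue of true response regulators, and a CCT domain that contacts DNA. They act as transcriptional repressors that accumulate in succession through the day, PRR9 after dawn, then PRR7, PRR5 with PRR3, and TOC1 around dusk. Among their targets are CCA1 and LHY, the morning MYB genes of the clock, and the CDF genes, whose products repress CONSTANS (CO), an activator of the florigen gene FT.

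RNA was sequenced from 42-day-old plants of the Columbia ecotype grown in short days, as inflorescence shoots stripped of leaves and roots. The 6 conditions were ft-10 mutants (a null allele of FT) after a single far-red-enriched photoperiod (FRP) and untreated, tfl1-1 mutants (a severe allele of the floral repressor gene TFL1) after FRP and untreated, and the wild type (WT) after FRP and untreated, with 3 biological replicates in each. FRP lasted 24 h and began at dusk of the short day (ZT8, that is 8 h after lights on), and treated shoots were harvested after it, while the study's methods kept the controls in short days for the same time. The labels instead call the untreated samples 0hr FRP, and the methods do not spell out the hour at which the controls were harvested. The far-red light, the missing night and the lower light intensity that the methods give for FRP cannot be told apart. The members accumulate in succession through the day, so a difference in the hour of harvest could not be told apart from FRP either.

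The study took 12 of the 18 libraries into its own tests, 2 per condition. These 12 are the basis of the values below, with all 18 given beside them. The study selected them after a principal component analysis of the same expression data. Standard errors, intervals and adjusted p from the 12 may therefore be too small. Gene counts summed to 20470477 in the shallowest library and 35851716 in the deepest. The library labelled untreated WT replicate 1, one of the 6 that the study set aside, stood apart. Its highest Spearman correlation with its own group was 0.936, against 0.979 with an untreated ft library, whereas the other 17 libraries were each closest to their own group. The slope of log2 expression on log2 exon length, relative to the mean library, was 0.1796 ± 0.141 in FRP tfl1 and -0.167 ± 0.0762 in untreated tfl1, -0.107 ± 0.0944 in FRP ft and 0.0119 ± 0.0278 in untreated ft, and 0.290 ± 0.0144 in FRP WT and -0.207 ± 0.250 in untreated WT (SD, n = 3 each). Untreated WT replicate 1 had a slope of 0.0819, against -0.343 and -0.359 in replicates 2 and 3. FT had 11 to 36 counts in the 6 ft libraries, 0 to 3 in the tfl1 libraries and 0 in the WT libraries, so its RNA could not check the ft label, and the labels were used as given. Shoot meristem markers were present in every condition (7 of 7 above 0), with a summed level of 354 to 398 CPM (a gene's counts scaled to the size of its library) in FRP WT and 182 to 220 CPM in untreated WT. Root markers summed to at most 4.72 CPM, with EXPA7, RHD6 and PLT1 at 0 in all of the 12 libraries.

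The promoters of PRR9, PRR7, PRR5 and TOC1 are shown for the short sequences they carry. PRR9 and PRR7 rose upon FRP in tfl1, while PRR5 and TOC1 fell there. PRR3 fell in tfl1 too and is not shown, since it held no match. The other genotypes differed. In the 12 libraries no rise of PRR7 was found in ft, and no fall of PRR5 or TOC1 in WT. Whether the matches bear on these changes was not tested. On TAIR10.1 (RefSeq, the same nuclear chromosomes as the TAIR10 build of the files), PRR9 lies at chr2:19232607-19235179 on the plus strand, PRR7 at chr5:637681-642030, PRR5 at chr5:8356204-8358546 and PRR3 at chr5:24197971-24201415 on the minus strand, and TOC1 at chr5:24674963-24678550 on the plus strand. None of the 5 overlaps another annotated gene. Capitals mark matches to 5 sequences searched on both strands in the 250 bases before each start, namely the G-box CACGTG, the evening element AAAATATCT, the CCA1 binding site AAAAATCT, the LUX site GATNCG and the TCP site GGNCCCAC.
PRR9, chr2:19232357-19232606, plus strand: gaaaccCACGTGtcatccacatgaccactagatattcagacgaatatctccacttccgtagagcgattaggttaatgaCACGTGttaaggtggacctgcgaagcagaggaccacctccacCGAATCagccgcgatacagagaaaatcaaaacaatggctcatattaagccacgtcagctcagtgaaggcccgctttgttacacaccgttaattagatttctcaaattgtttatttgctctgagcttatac
PRR7, chr5:642031-642280, minus strand: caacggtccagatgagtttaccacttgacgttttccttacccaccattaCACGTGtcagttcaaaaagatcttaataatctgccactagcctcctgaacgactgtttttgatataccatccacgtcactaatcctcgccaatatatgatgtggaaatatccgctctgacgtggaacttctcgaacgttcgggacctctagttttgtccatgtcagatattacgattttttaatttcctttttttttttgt
PRR5, chr5:8358720-8358749, minus strand: tcgctAGATTTTTtctAGATATTTTctttt
TOC1, chr5:24674713-24674962, plus strand: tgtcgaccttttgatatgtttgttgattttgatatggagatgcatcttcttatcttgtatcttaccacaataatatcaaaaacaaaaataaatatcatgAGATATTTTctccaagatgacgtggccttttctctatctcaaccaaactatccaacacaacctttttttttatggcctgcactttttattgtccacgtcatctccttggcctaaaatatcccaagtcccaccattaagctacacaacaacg

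PRR9 held 2 G-boxes, with their first bases at -244 and -172 from the annotated start, and a LUX site at -130. PRR7 held 1 G-box at -201. The evening element was found, on the opposite strand, in PRR5 at -187 and in TOC1 at -151, and PRR5 also had a CCA1 site at -198. PRR5 has a model that begins at its start codon, so only the 30 bases around its matches are shown. PRR3 matched none of the 5 sequences and no member matched the TCP site. Of 27443 promoter windows of this length, 6.49% held a G-box, 2.36% an evening element, 6.69% a CCA1 site and 17% a LUX site. A match is a run of letters and not a measured binding site.

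Levels are CPM after TMM scaling, which adjusts the size of each library for differences in composition. Tests are edgeR's quasi-likelihood tests on the raw counts with Benjamini-Hochberg adjustment over 21277 genes (12 libraries) or 21442 genes (18 libraries), and a call is an adjusted p of at most 0.005. Errors of log2 fold changes are standard errors.

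**Figure D1:**
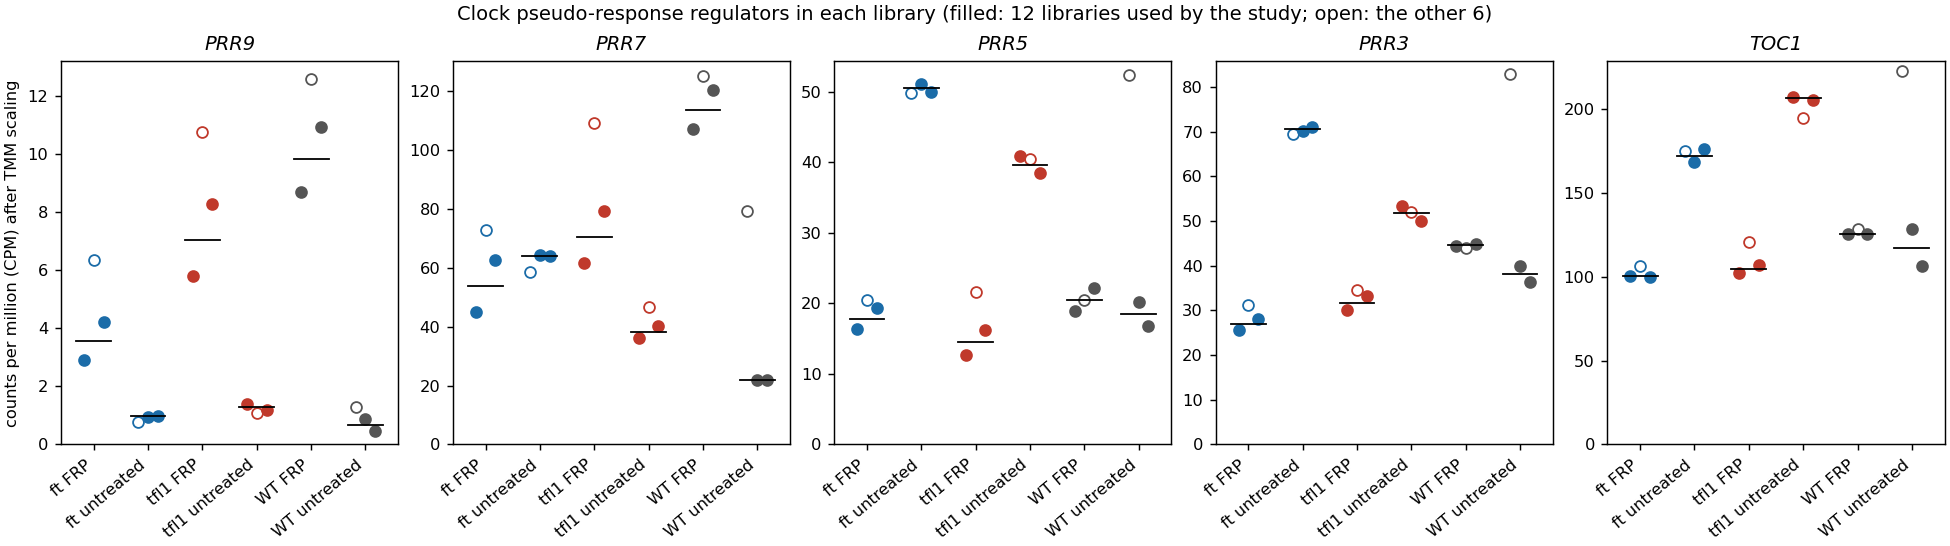
CPM of each member (vertical axis, from 0) in each library of the 6 conditions, with filled points for the 12 libraries of the study, open points for the other 6 and bars for the mean of the filled points. PRR9 was higher in every FRP library than in every untreated one, and the open untreated WT point lies far above its group for PRR7, PRR5, PRR3 and TOC1.

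PRR9, the first of the family to peak after dawn, rose upon FRP in all 3 genotypes. In ft it had 2.90, 6.37 and 4.21 CPM (replicates 1, 2 and 3) after FRP, against 0.778, 0.958 and 0.996 CPM untreated. In tfl1 it had 5.81, 10.8 and 8.27 CPM after FRP, against 1.39, 1.08 and 1.18 CPM untreated. In WT it had 8.69, 12.6 and 10.9 CPM after FRP, against 1.29, 0.891 and 0.477 CPM untreated. Every treated library lay above every untreated library, whatever the genotype. Its log2 fold change was 1.86 ± 0.30 in ft (adjusted p = 4.58e-04), 2.44 ± 0.26 in tfl1 (1.05e-05) and 3.80 ± 0.30 in WT (3.87e-07). Over all 18 libraries these were 2.30 ± 0.33, 2.76 ± 0.32 and 3.59 ± 0.34, and all 3 calls held. Without untreated ft replicate 2 or 3 the adjusted p in ft was 0.00733 or 0.00600, short of the threshold, at a log2 fold change of 1.83 or 1.88.

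PRR7, which follows PRR9 in the morning and with it represses CCA1 and LHY, rose upon FRP in tfl1 and WT. In ft it had 44.9, 72.7 and 62.7 CPM after FRP, against 58.7, 64.3 and 63.9 CPM untreated. In tfl1 it had 61.5, 109 and 79.3 CPM after FRP, against 36.2, 46.7 and 40.2 CPM untreated. In WT it had 107, 125 and 120.4 CPM after FRP, against 79.3, 21.8 and 21.7 CPM untreated. The treated and untreated libraries did not overlap in WT or tfl1 and overlapped in ft, and untreated WT replicate 1 lay far above its group mates. In the 12 libraries PRR7 rose in WT (log2 fold change 2.39 ± 0.16, adjusted p = 1.09e-07) and in tfl1 (0.88 ± 0.15, 2.84e-04), and in ft the value was -0.25 ± 0.15 (0.181, 95% interval -0.57 to 0.07). With all 18 libraries the WT value was 1.52 ± 0.39 (adjusted p = 0.00265), the tfl1 value 1.02 ± 0.38 missed the threshold (0.0320) and the ft value was -0.052 ± 0.38 (0.937). With 17 libraries, leaving out only untreated WT replicate 1, they were 2.43 ± 0.23 (1.56e-07), 1.02 ± 0.18 (1.58e-04) and -0.052 ± 0.18 (0.844). Without FRP tfl1 replicate 3 the tfl1 call was also lost (0.66, adjusted p = 0.00527).

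PRR5, a partner of TOC1 that helps bring it into the nucleus, fell upon FRP in both mutants. In ft it had 16.4, 20.5 and 19.3 CPM after FRP, against 49.9, 51.1 and 49.96 CPM untreated. In tfl1 it had 12.7, 21.6 and 16.2 CPM after FRP, against 40.8, 40.5 and 38.5 CPM untreated. In WT it had 18.9, 20.5 and 22.1 CPM after FRP, against 52.3, 20.2 and 16.8 CPM untreated. All treated libraries of the 3 genotypes lay between 12.7 and 22.1 CPM, so that the conditions parted mainly in the untreated plants, where WT replicates 2 and 3 were low and WT replicate 1 was as high as ft. The log2 fold change was -1.50 ± 0.12 in ft (adjusted p = 5.57e-06) and -1.46 ± 0.13 in tfl1 (2.35e-06), and in WT 0.14 ± 0.13 (0.331, 95% interval -0.15 to 0.44). Over all 18 libraries the ft and tfl1 calls held (-1.43 ± 0.31 and -1.25 ± 0.30), and the WT value took the other sign, -0.54 ± 0.30 (0.128). With 17 libraries the WT value was 0.14 ± 0.16 (0.423).

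PRR3, which shields TOC1 protein from the F-box protein ZTL, fell upon FRP in both mutants as well. In ft it had 25.6, 31.2 and 28.1 CPM after FRP, against 69.5, 70.1 and 70.9 CPM untreated. In tfl1 it had 30.03, 34.6 and 33.3 CPM after FRP, against 53.4, 51.9 and 49.97 CPM untreated. In WT it had 44.5, 44.0 and 44.9 CPM after FRP, against 82.9, 39.996 and 36.3 CPM untreated. The groups did not overlap in either mutant, and the untreated WT libraries lay on both sides of the treated ones. The log2 fold change was -1.39 ± 0.08 in ft (adjusted p = 3.77e-07), -0.71 ± 0.08 in tfl1 (1.42e-05) and 0.23 ± 0.08 in WT (0.0212). With all 18 libraries the ft value was -1.31 ± 0.22 (4.30e-04), the tfl1 value -0.67 ± 0.21 missed the threshold (0.0152) and the WT value was -0.26 ± 0.21 (0.296). With 17 libraries they were -1.31 ± 0.07, -0.67 ± 0.07 and 0.22 ± 0.08, and the tfl1 call stood (1.22e-06). Scaled by library totals the WT value was 0.37 and passed (0.00168).

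TOC1, the evening member that represses CCA1 and LHY at night, fell upon FRP in both mutants. In ft it had 101, 106 and 100.02 CPM after FRP, against 175, 168 and 177 CPM untreated. In tfl1 it had 103, 121 and 107 CPM after FRP, against 208, 195 and 206 CPM untreated. In WT it had 125, 129 and 125 CPM after FRP, against 223, 129 and 106 CPM untreated. Both mutants were lower in every treated library than in any untreated one, and in WT replicate 1 alone stood above the treated range. The log2 fold change was -0.78 ± 0.08 in ft (adjusted p = 2.47e-05) and -0.98 ± 0.08 in tfl1 (1.39e-06), and in WT 0.095 ± 0.08 (0.294, 95% interval -0.08 to 0.27). Over all 18 libraries the ft value -0.76 ± 0.18 missed the threshold (0.00601), the tfl1 call held (-0.88 ± 0.18) and the WT value was -0.27 ± 0.18 (0.193). With 17 libraries the 3 values were -0.76 ± 0.07 (1.19e-06), -0.88 ± 0.07 (7.74e-08) and 0.11 ± 0.08 (0.236). Without untreated WT replicate 3 the WT value was -0.035 (0.638).

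Upon FRP 1 member rose and 3 fell in ft, 2 rose and 3 fell in tfl1, and 2 rose and none fell in WT. Over all genes of the 12 libraries 12.8% rose and 12.6% fell in ft, 24.6% and 21.5% in tfl1, and 33.0% and 33.4% in WT. With 18 libraries the counts of members were 1 and 2 in ft, 1 and 2 in tfl1, and 2 and 0 in WT, against 5.43% and 6.49%, 18.2% and 17.4%, and 24.5% and 28.1% of all genes. The median log2 fold change of the 5 members was -0.78 in ft, -0.71 in tfl1 and 0.23 in WT, beside medians over all genes of -0.0056, 0.019 and -0.023. The 3 contrasts each have their own controls, but the 6 conditions share 1 fit.

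**Figure D2:**
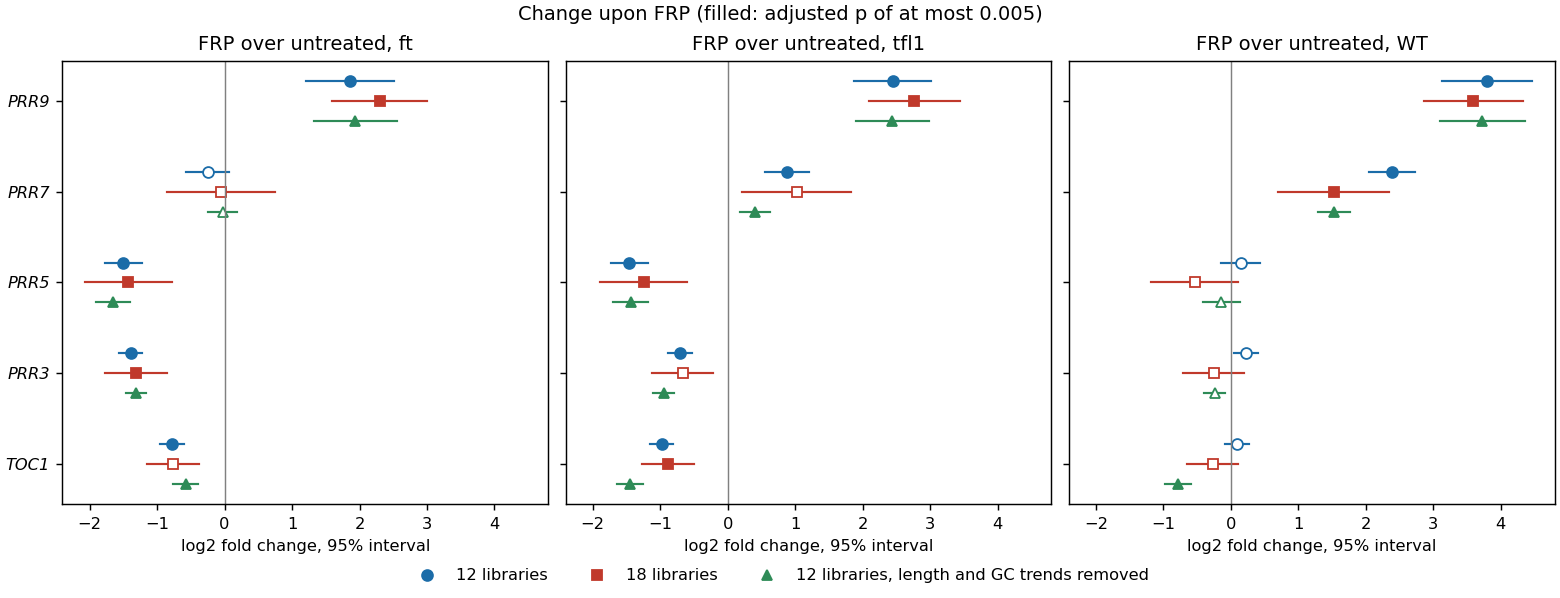
Log2 fold change upon FRP (horizontal axis) of each member in ft, tfl1 and WT, with 95% intervals, for the 12 libraries (circles), all 18 (squares) and the 12 with length and GC trends removed (triangles), filled where a call was made. PRR9 lies right of 0 in every setting, and TOC1 in WT lies at 0.095 in the 12 libraries and at -0.79 with the trends removed.

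The members differ in length, with 3233 exon bases in PRR7, 2808 in TOC1, 2805 in PRR3 and 2140 in PRR9, and 1677 coding bases in PRR5, while the slope on length given above differed between conditions. When smooth trends on length and GC content were taken out of each of the 12 libraries, the fall of TOC1 in WT passed the threshold (-0.79, adjusted p = 4.22e-06), the rise of PRR7 in WT was 1.53 and in tfl1 0.40 (0.00427), and PRR5 and PRR3 in WT took the other sign without passing (-0.14 and -0.24). TOC1 was then -0.58 in ft and -1.44 in tfl1. On that scale 1 member rose and 3 fell in ft, 2 rose and 3 fell in tfl1, and 2 rose and 1 fell in WT, against 12.8% and 12.5%, 20.2% and 21.7%, and 23.0% and 34.9% of all genes. Such a fit also takes out real changes that follow length, and the part of the length trend in these results was not tested.

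The ratio of PRR7 to PRR5 counts within a library needs no scaling between libraries. It was 2.74, 3.55 and 3.25 in FRP ft, against 1.18, 1.26 and 1.28 in untreated ft. It was 4.83, 5.07 and 4.90 in FRP tfl1, against 0.886, 1.15 and 1.04 in untreated tfl1. In FRP WT it was 5.68, 6.09 and 5.44, against 1.51, 1.07 and 1.29 in untreated WT. All 9 treated libraries lay above all 9 untreated ones, and untreated WT replicate 1 fell near its group on this measure. Among treated plants the ratio was highest in WT, then tfl1, then ft, with no overlap between neighbours. The group means of the slope on length given above ran in the same order, but single libraries did not. FRP tfl1 replicate 2 had a slope of 0.330, against 0.282, 0.307 and 0.281 in FRP WT, and a ratio below theirs. The ratio sets the longest member against the one with the shortest model. With length and GC trends removed from the 12 libraries, FRP tfl1 minus FRP WT was -0.45 for both PRR7 and PRR5. Without that step it was -0.69 for PRR7 and -0.51 for PRR5. FRP ft minus FRP WT was -0.49 for PRR7 and -0.24 for PRR5 with trends removed, against -1.08 and -0.20 without that step. The part of the length trend in the ratio was not tested.

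**Figure D3:**
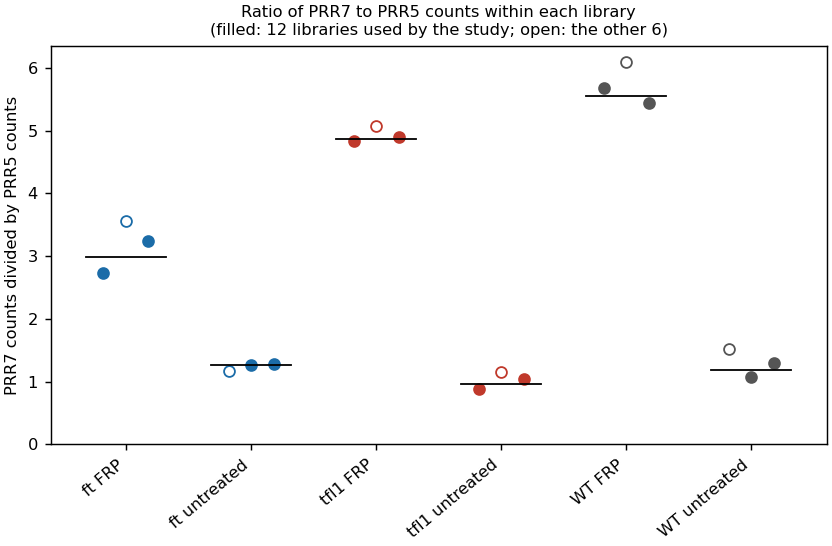
Counts of PRR7 divided by counts of PRR5 within each library (vertical axis, from 0) in the 6 conditions, with filled points for the 12 libraries of the study, open points for the other 6 and bars for the mean of the filled points. Treated libraries range from 2.74 to 6.09 and untreated libraries from 0.886 to 1.51.

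For most members the signed log2 fold change upon FRP was lower in the mutants than in WT in the 12 libraries. For PRR9 this was a smaller rise, and for PRR7 a smaller rise in tfl1 and no call in ft. For PRR5, PRR3 and TOC1 it was a fall in both mutants where WT had no call. The difference of effects between tfl1 and WT passed for 4 of 5 members, against 27.8% of all genes, and was -1.51 ± 0.21 for PRR7 (adjusted p = 2.12e-04), -1.60 ± 0.18 for PRR5 (6.17e-05), -0.93 ± 0.11 for PRR3 (7.87e-05) and -1.07 ± 0.11 for TOC1 (3.91e-05), on the log2 scale. For PRR9 it was -1.36 ± 0.44 (0.0245). Between ft and WT all 5 members passed, against 58.5% of all genes, with -1.94 ± 0.47 for PRR9, -2.64 ± 0.21 for PRR7, -1.65 ± 0.18 for PRR5, -1.62 ± 0.11 for PRR3 and -0.88 ± 0.11 for TOC1 (adjusted p between 7.06e-07 and 0.00274). The PRR9 call was lost without untreated ft replicate 2 or 3, FRP ft replicate 1, untreated WT replicate 3 or FRP WT replicate 3, with an adjusted p of 0.00728 to 0.0169. Between tfl1 and ft 2 members passed, against 40.3% of all genes, PRR7 at 1.14 ± 0.21 (6.85e-04) and PRR3 at 0.69 ± 0.11 (3.07e-04). TOC1 differed by -0.20 ± 0.11 (0.148, 95% interval -0.45 to 0.05) and PRR5 by 0.044 ± 0.18 (0.847, 95% interval -0.34 to 0.43).

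None of these differences passed with all 18 libraries, where 4.75%, 31.1% and 17.9% of all genes did. All 15 kept their sign there and were smaller against WT, for example -0.50 ± 0.53 for PRR7 between tfl1 and WT (adjusted p = 0.552) and -1.06 ± 0.30 for PRR3 between ft and WT (0.00834). With 17 libraries the same 4 members passed between tfl1 and WT, 4 of 5 between ft and WT (PRR9 missed at 0.0155) and the same 2 between tfl1 and ft. No share of all genes is given for 17 libraries, here or below, so those counts have nothing to be read against. When length and GC trends were removed from the 12 libraries, TOC1 in ft minus WT took the other sign (0.21, 0.168), and in tfl1 minus ft TOC1 passed (-0.86, 1.19e-04) while PRR7 and PRR3 did not (0.43 and 0.37). Both differences from WT share the WT libraries and are not independent.

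Some members differed between untreated mutants and untreated WT in the 12 libraries. In untreated tfl1 against untreated WT, 4 of 5 members passed and were higher, against 24.5% of all genes, with log2 differences of 0.81 ± 0.16 for PRR7 (adjusted p = 0.00166), 1.09 ± 0.13 for PRR5 (7.78e-05), 0.44 ± 0.08 for PRR3 (0.00111) and 0.81 ± 0.08 for TOC1 (2.68e-05). In untreated ft against untreated WT the same 4 were higher, against 39.9% of all genes, by 1.56 ± 0.16, 1.44 ± 0.13, 0.88 ± 0.08 and 0.55 ± 0.08 (2.58e-05, 1.58e-05, 1.62e-05 and 1.62e-04). PRR9 differed by 0.87 ± 0.39 in tfl1 (0.0890, 95% interval 0.01 to 1.73) and 0.47 ± 0.42 in ft (0.349). With all 18 libraries no member passed in either mutant, where 6.81% and 0.410% of all genes did, and PRR3 in tfl1 took the other sign (-0.035). With 17 libraries the same 4 members passed in each mutant. In tfl1 the PRR7 call was lost without untreated WT replicate 2 or 3 or untreated tfl1 replicate 3 (0.0124 to 0.0149), and the PRR3 call without untreated WT replicate 3 or untreated tfl1 replicate 1 (0.0127 and 0.0108). With length and GC trends removed TOC1 in ft was 0.0071 (0.956).

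After FRP some members were lower in the mutants than in WT. In FRP ft against FRP WT, 4 of 5 members passed, against 53.1% of all genes, with -1.47 ± 0.22 for PRR9 (adjusted p = 1.20e-04), -1.08 ± 0.15 for PRR7 (5.32e-05), -0.74 ± 0.08 for PRR3 (1.28e-05) and -0.32 ± 0.08 for TOC1 (0.00364), while PRR5 was -0.20 ± 0.13 (0.181, 95% interval -0.49 to 0.08). Over all 18 libraries only PRR9 passed (-1.26 ± 0.28, 0.00208), where 32.9% of all genes did, and with 17 the same 4 members passed. The TOC1 call was lost in 10 of the 12 fits that left out 1 library (0.00600 to 0.0231) and with trends removed, where its sign turned (0.21). In FRP tfl1 against FRP WT 2 members passed, against 12.9% of all genes, PRR7 at -0.69 ± 0.14 (0.00431) and PRR3 at -0.50 ± 0.08 (0.00118). At an adjusted p of at most 0.05 these were 4 members, with PRR5 and TOC1, against 37.9% of all genes. None passed with all 18 libraries, where 2.67% of all genes did, and with 17 only PRR3 passed (-0.45, 5.36e-04). Without any 1 of FRP WT replicate 1 or 3 or FRP tfl1 replicate 1 neither PRR7 nor PRR3 passed (0.00946 to 0.0590), and PRR7 was also lost without either untreated ft library or either untreated WT library (0.00667 to 0.0101).

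**Figure D4:**
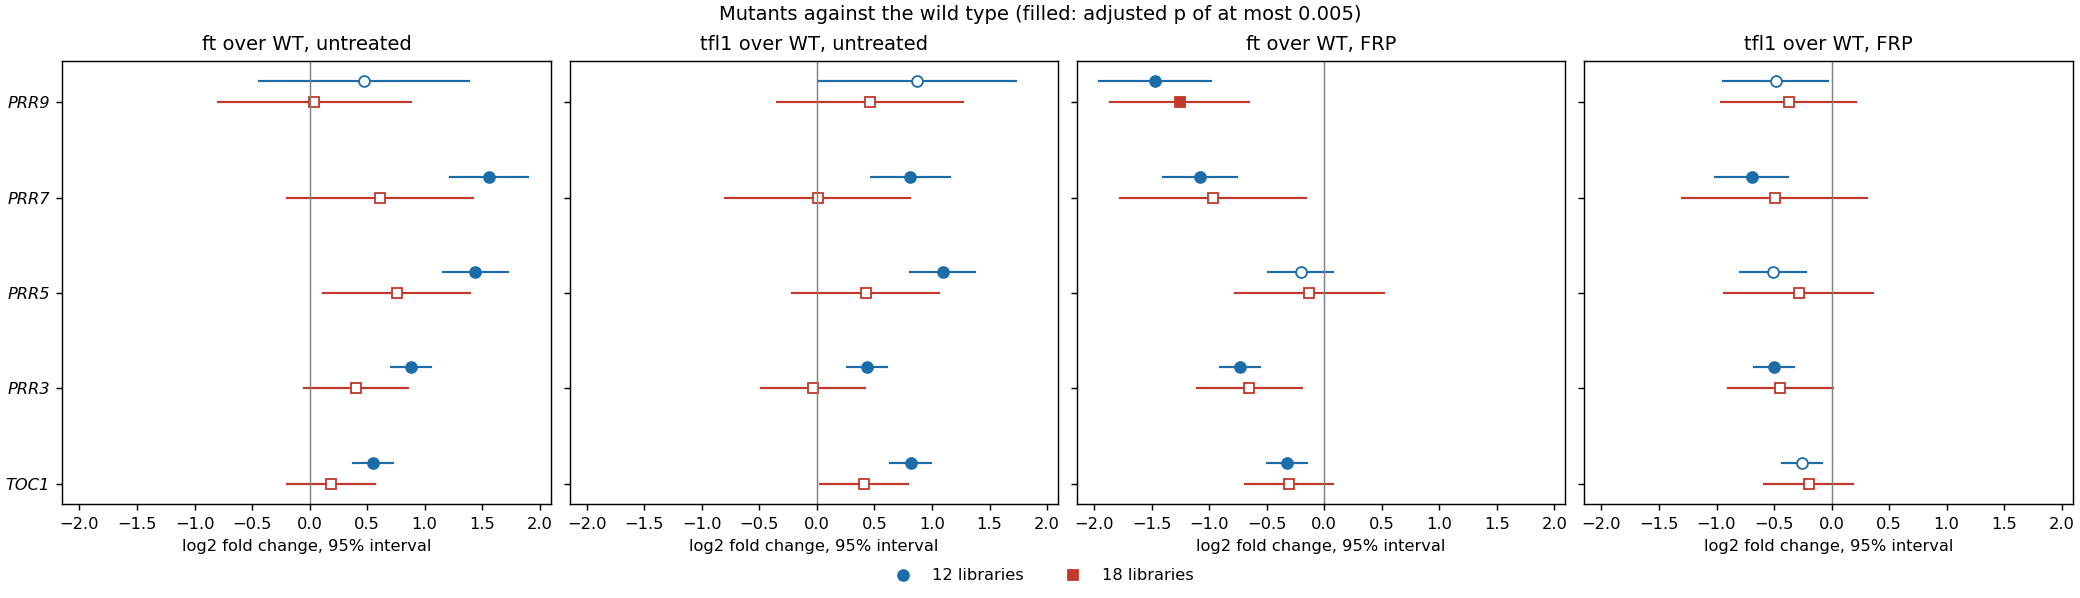
Log2 fold change of mutant over WT (horizontal axis, the same in all panels) of each member in untreated and FRP plants, with 95% intervals, for the 12 libraries (circles) and all 18 (squares), filled where a call was made. Untreated mutants lie right of 0 and FRP mutants left of it in the 12 libraries, and the only filled square is PRR9 in FRP ft.

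Ordered by level in the 12 libraries, the conditions fell into 2 patterns. PRR9 and PRR7 were highest in FRP WT and lowest in untreated WT in the 12 libraries, with mean levels of 9.82 and 0.684 CPM for PRR9 and 114 and 21.8 CPM for PRR7. Between these PRR9 ran FRP tfl1, FRP ft, untreated tfl1, untreated ft, and with all 18 libraries FRP WT overlapped FRP tfl1, FRP tfl1 overlapped FRP ft, and untreated ft overlapped untreated WT. PRR7 ran FRP tfl1, untreated ft, FRP ft, untreated tfl1, where FRP tfl1 and untreated ft already overlapped in the 12 libraries and all neighbours did in the 18. PRR5 and PRR3 were highest in untreated ft (50.5 and 70.5 CPM), followed by untreated tfl1, and TOC1 was highest in untreated tfl1 (207 CPM), followed by untreated ft. For PRR5 and TOC1, FRP WT and untreated WT came next and overlapped each other. PRR5 was lowest in FRP tfl1 (14.5 CPM), and PRR3 and TOC1 were lowest in FRP ft (26.8 and 100.4 CPM).

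Per kilobase of exon, which allows genes to be compared, TOC1 was the highest member in all 6 conditions, with mean levels from 35.7 CPM per kb in FRP ft to 73.6 CPM per kb in untreated tfl1. PRR9 was the lowest in all 6, with 4.59 CPM per kb in FRP WT and 0.319 CPM per kb in untreated WT as its extremes. PRR7 came second in FRP WT at 35.2 CPM per kb, and PRR5 second in untreated ft at 30.1 CPM per kb, a value set against coding length only.

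Across the 12 libraries the log2 CPM of PRR5 correlated with TOC1 (Pearson r = 0.909) and PRR3 (0.900), PRR3 with TOC1 (0.847) and PRR9 with PRR7 (0.810). PRR9 ran against PRR5 (-0.512) and TOC1 (-0.461), and PRR7 against PRR5 gave -0.015. With 18 libraries the pairs gave 0.922, 0.910, 0.880 and 0.780. These are descriptions over libraries of 6 conditions, which share treatment and length trend.

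The genes most like each member over the 12 libraries, of 18908 with a mean of at least 1 CPM, were AT2G17660, BGLU11 (AT1G02850) and AT1G73660 for PRR9 (r of 0.985 to 0.986) and AT1G61850, PRP39-2 (AT5G46400) and RSH1 (AT4G02260) for PRR7 (all 0.993). They were AT1G50280, AACT1 (AT5G61160) and SYP111 (AT1G08560), which encodes the cytokinesis syntaxin KNOLLE, for PRR5 (0.938 to 0.953). They were AT1G70750, AT4G34500 and PHS2 (AT3G46970) for PRR3 (0.963 to 0.978), and AT1G75370, CYP722A1 (AT1G19630) and APR2 (AT1G62180) for TOC1 (0.972 to 0.990). No other clock gene of the lists was among these 15. With all 18 libraries the genes for PRR9 and PRR7 were all replaced. They were then KNAT1 (AT4G08150, a meristem marker above), ARF8 (AT5G37020) and AT5G19740 for PRR9, and SLK2 (AT5G62090), NPH4 (AT5G20730) and AT1G60200 for PRR7. AT1G50280 and SYP111 stayed for PRR5, AT4G34500 and PHS2 for PRR3, and AT1G75370 and CYP722A1 for TOC1.

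Another 41 clock genes were looked at in 5 lists. Of the 11 morning genes, MYB factors and their LNK co-activators, 9 rose in ft, 8 rose and 1 fell in tfl1, and 10 rose and 1 fell in WT, against the shares of all genes given above. CCA1 averaged 71.9 ± 1.17 CPM in FRP WT and 0.395 ± 0.154 CPM in untreated WT (SD, n = 2 each), and its log2 fold change was 5.02 in ft, 6.55 in tfl1 and 7.46 in WT. LHY rose by 5.87 in ft, 6.90 in tfl1 and 6.73 in WT, and LNK2 by 4.41 in WT, on the log2 scale. RVE6 was the gene that fell, by 1.27 in tfl1 and 0.98 in WT. The median log2 fold change of this list was 2.63 in ft, 1.76 in tfl1 and 2.56 in WT.

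Of the 8 evening genes, 1 rose and 5 fell in ft, 0 rose and 5 fell in tfl1, and 3 rose and 4 fell in WT. Of all genes, 12.8% rose and 12.6% fell in ft, 24.6% and 21.5% in tfl1, and 33.0% and 33.4% in WT. FKF1, a blue-light receptor F-box gene of the ZTL family, averaged 6.03 ± 0.218 CPM in FRP WT and 56.96 ± 3.62 CPM in untreated WT (log2 fold change -3.24), and ELF4 and LUX of the evening complex fell by 2.64 and 1.85 in WT. GI, whose product stabilises ZTL, fell in ft (-0.97), was at -0.011 in tfl1 (adjusted p = 0.945) and rose in WT (1.22). ELF3 and ZTL rose by 0.37 and 0.33 in WT. With length and GC trends removed all 8 fell in tfl1 and in WT, GI at -0.45, ELF3 at -0.49 and ZTL at -0.57 in WT included. On that scale 21.7% of all genes fell in tfl1 and 34.9% in WT. With all 18 libraries 1 evening gene rose and 4 fell in WT, where 24.5% of all genes rose and 28.1% fell. GI missed the threshold there (0.78, 0.0226).

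Of 8 output genes, 6 rose in ft, and 7 rose and 0 fell in both tfl1 and WT. The shares of all genes that rose were 12.8% in ft, 24.6% in tfl1 and 33.0% in WT. CO, the photoperiod gene that the CDF factors repress, was at 0.44 in ft (adjusted p = 0.165), and rose by 1.27 in tfl1 and 3.55 in WT. In CPM it was 5.05 ± 0.380 in FRP WT and 0.428 ± 0.00234 in untreated WT. RVE1 rose by 2.98 and CDF5 by 2.70 in WT. Of 10 partners and regulators, 1 rose in ft, where 12.8% of all genes did, 7 rose and 1 fell in tfl1 (24.6% and 21.5% of all genes), and 7 rose and 2 fell in WT (33.0% and 33.4%). TIC, a nuclear regulator of clock period, rose by 2.67 in WT, and the co-repressor genes TPR2 and TPL by 2.20 and 2.097. CHE, a TCP factor that binds TOC1 protein at the CCA1 promoter, and bZIP63 fell by 1.09 and 1.75. With trends removed 4 of the partners rose in ft, 3 rose and 2 fell in tfl1, and 6 rose and 4 fell in WT. On that scale 12.8% of all genes rose in ft, 20.2% rose and 21.7% fell in tfl1, and 23.0% rose and 34.9% fell in WT. There TIC was at 0.50, TPR2 at 0.73 and TPL at 0.52, and CO rose by 2.77.

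Of the 4 pseudo-response regulators outside the clock, PRR2 and PRR8 had enough counts to be tested. PRR2 rose by 0.90 in ft, 1.02 in tfl1 and 1.31 in WT. PRR8 fell in ft (-0.87, adjusted p = 6.07e-04) and was at 0.39 in tfl1 (0.0352) and 0.52 in WT (0.00794). Over all 18 libraries PRR8 passed in no genotype, and with trends removed from the 12 it passed as lower in WT (-0.49, 0.00366).

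**Figure D5:**
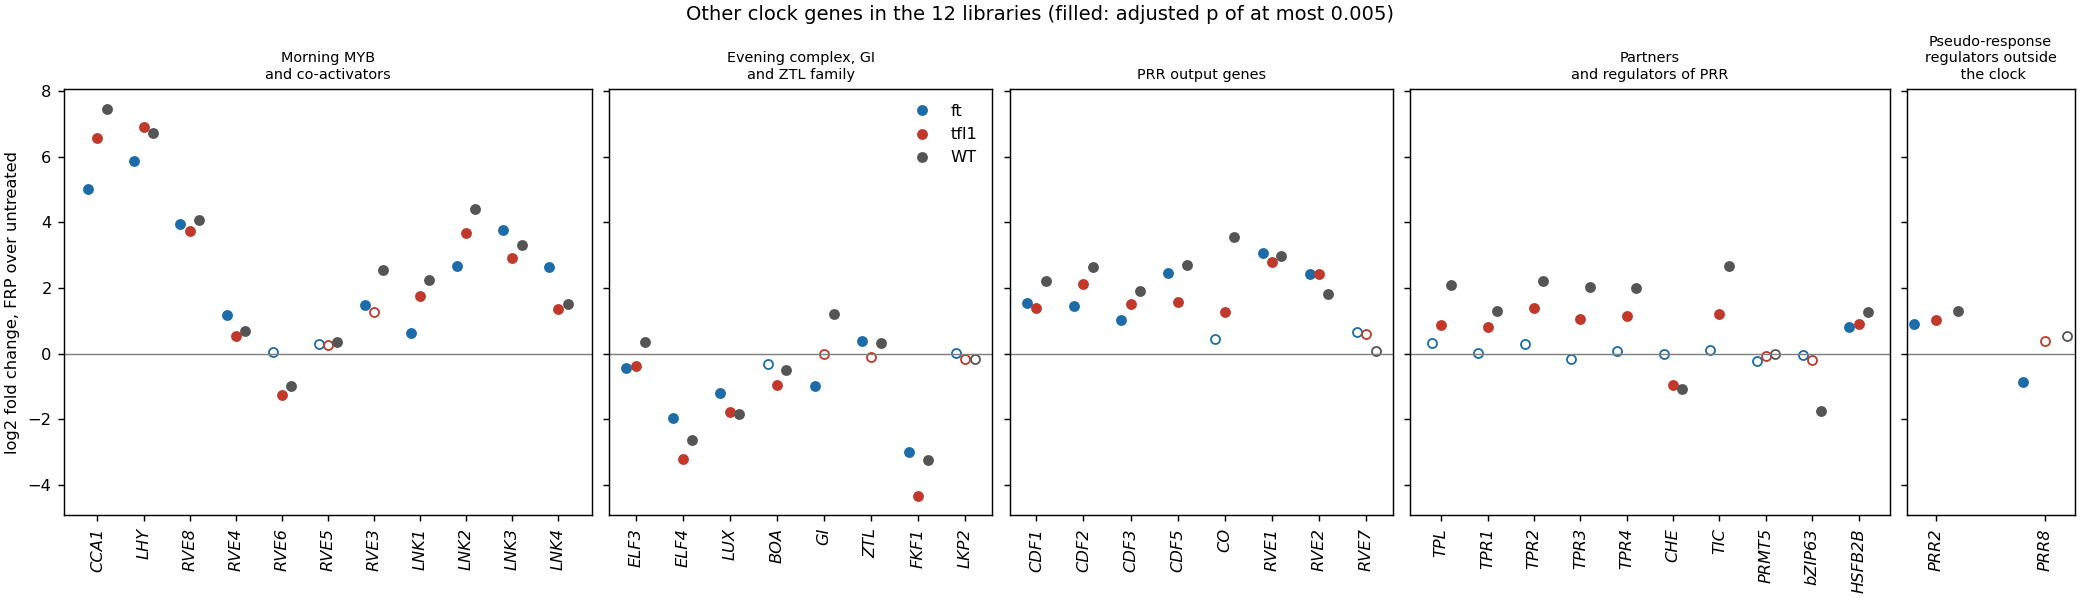
Log2 fold change upon FRP (vertical axis) of the tested genes of 5 other clock lists in ft, tfl1 and WT, in the 12 libraries, filled where a call was made. CCA1 and LHY lie above 5 in every genotype, FKF1 lies lowest, and GI lies at -0.97 in ft, -0.011 in tfl1 and 1.22 in WT.

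Markers of other cells of the shoot moved with FRP as well. The 4 mesophyll markers, RBCS1A, CAB2, CAB3 and CA1, summed to 3008 to 3335 CPM in FRP ft and 4481 to 4615 CPM in untreated ft, to 1235 to 1371 CPM in FRP tfl1 and 4839 to 5128 CPM in untreated tfl1, and to 1153 to 1482 CPM in FRP WT and 3769 to 5148 CPM in untreated WT. Of these 4, 1 fell in ft and all fell in tfl1 and WT, where 12.6%, 21.5% and 33.4% of all genes fell. The ft count hung on the setting. None fell there with all 18 libraries (6.49% of all genes), and all 4 with length and GC trends removed from the 12 (12.5%). The 2 companion cell markers, SUC2 and AHA3, summed to 250 to 279.7 CPM in FRP WT and 56.7 to 63.5 CPM in untreated WT, and both rose there, with 1 rising in tfl1 and none in ft. The photosynthetic genes used as markers are themselves set by light, and the part of cell makeup in the members' values was not tested. In bulk RNA fewer cells of a type and less RNA per cell cannot be told apart.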

How the data were processed

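Trimming of the single-end reads was done by the authors with Trimmomatic, alignment to TAIR10 with STAR (2.5.3a), and counting over Araport11 models by HTSeq (0.7.2) without regard to strand, at an alignment quality of at least 30. The deposited values are raw counts per gene, as per the labels. Reads assigned to no gene (7.98 to 10.9% of each table) were left out.

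Counts were scaled by TMM. A gene entered the test where 2 or more libraries held 10 or more counts of it, using edgeR 4.0.16 (limma 3.58.1, R 4.3.3), all 6 conditions in 1 fit, over 10 contrasts, with Benjamini-Hochberg adjustment. The biological coefficient of variation was estimated at 0.0738 (12 libraries) and 0.161 (18 libraries). The test was checked on simulated data. DESeq2 1.42.0 was an alternative, and figures used Python 3.11.15 and matplotlib 3.10.9. Length and GC trends were natural splines with 5 degrees of freedom in each library, for the 99.6% of tested genes with a RefSeq length. No 2 replicates agreed within sampling noise (chi-square per degree of freedom of 2.34 to 125).

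The members and gene lists were chosen with earlier results of these data known. Named genes were the 5 members, up to 3 genes per direction and list with the largest called change in WT, always CCA1, LHY, GI and CO, the 3 genes most correlated with each member, and FT and TFL1. TFL1 rose upon FRP in tfl1 (2.85), ft (1.44) and WT (1.08) on the log2 scale.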

Additional observations from a re-analysis of the deposited data

Results flagged for a closer look

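The effect of FRP differed between genotypes for 11 pairs of member and contrast, by edgeR's quasi-likelihood test of the difference itself in the 12 libraries. In tfl1 minus WT, the difference on the log2 scale was -1.51 for PRR7, -1.60 for PRR5, -0.93 for PRR3 and -1.07 for TOC1. In ft minus WT it was -1.94 for PRR9, -2.64 for PRR7, -1.65 for PRR5, -1.62 for PRR3 and -0.88 for TOC1. In tfl1 minus ft it was 1.14 for PRR7 and 0.69 for PRR3. The same threshold was passed by 27.8% of all genes in tfl1 minus WT, 58.5% in ft minus WT and 40.3% in tfl1 minus ft. The 2 of 5 members in tfl1 minus ft were therefore close to the share of all genes. None of the 11 passed with all 18 libraries, where 4.75%, 31.1% and 17.9% of all genes did. With 17 libraries, leaving out only untreated WT replicate 1, PRR9 in ft minus WT alone missed (adjusted p = 0.0155). With length and GC trends removed from the 12, PRR7 and PRR3 in tfl1 minus ft missed (0.0248 and 0.00799). TOC1 in ft minus WT then changed sign (0.21).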

How the results depend on the processing

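Of 1200 comparisons of a member's fold change with its value under an alternative, 1047 kept direction and side of the threshold, 120 lost the call, 10 gained one and 23 changed sign. A change of sign was counted only as such, also where a call was lost or gained with it. The cause of these changes was not tested. Members past the threshold, with 1 library left out at a time, numbered 3 to 4 for FRP in ft, 2 to 2 in WT, 4 to 5 in tfl1, 4 to 4 for tfl1 minus WT effects, 4 to 5 for ft minus WT, 2 to 2 for tfl1 minus ft, 2 to 4 and 4 to 4 for untreated tfl1 and ft against WT, and 0 to 2 and 3 to 4 for FRP tfl1 and ft against WT. With all 18 libraries 3 members passed in tfl1, 0 in the 3 differences of effects, 0 in both untreated contrasts and in FRP tfl1 against WT, and 1 in FRP ft against WT.

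Shares of all genes are given only for 12 and 18 libraries, the 0.05 threshold, and FRP effects with trends removed from 12. Member counts under the other settings cannot be read against such a share. With the replicate block in all 18 libraries 2 members passed in ft, 2 in tfl1, 1 in WT, 1 in FRP ft against WT and 0 in each other contrast. The FRP calls that held in the 18 libraries and were lost with the block were PRR5 in ft (adjusted p = 0.00612) and tfl1 (0.00591) and PRR7 in WT (0.00546). The numbers were not taken as pairs, since the study's methods name no replicate block and the replicate numbers kept differ between conditions. Same-number libraries correlated at 0.189, 0.175 and -0.014 in ft, 0.377, 0.370 and -0.008 in tfl1, and -0.171, -0.049 and 0.010 in WT. Replicates 1 and 2 taken crosswise gave -0.189 and -0.184 in ft, -0.365 and -0.382 in tfl1, and 0.048 and 0.178 in WT. The labels do not say whether equal numbers mark pairs. With trends removed from the 12 libraries 1 member passed in tfl1 minus ft. With trends removed from all 18, an alternative chosen after seeing the data, 4 passed in WT, 1 each in tfl1 minus ft, untreated tfl1 against WT and FRP ft against WT, and 0 in tfl1 minus WT, ft minus WT, untreated ft against WT and FRP tfl1 against WT. FRP tfl1 against WT gave 1 with 17 libraries, 1 with library totals, 0 with only the groups compared, 3 with DESeq2 (PRR5 added, adjusted p = 0.00288) and 4 at an adjusted p of at most 0.05.

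Changes of sign for FRP in WT were -0.54 (PRR5), -0.26 (PRR3) and -0.27 (TOC1) with 18 libraries, -0.50, -0.23 and -0.25 with the replicate block, -0.14, -0.24 and -0.79 with trends removed from 12, -0.73, -0.56 and -0.87 from 18, and for TOC1 -0.035 to 0.24 on leaving out 1 library, the lowest without untreated WT replicate 3. PRR7 in ft was 0.086 with trends removed from 18. TOC1 with trends removed from 12 and 18 was 0.21 and 0.24 in ft minus WT, 0.21 and 0.18 in FRP ft against WT, and -0.067 (18) in untreated ft against WT. PRR3 in untreated tfl1 against WT was -0.035 with 18 libraries and -0.0098 with the replicate block. PRR5 in tfl1 minus ft ranged over -0.16 to 0.17 on leaving out 1 library, with -0.07 without FRP ft replicate 1 and the lowest without FRP tfl1 replicate 3. PRR9 rested on 10 to 30 counts in each untreated ft and WT library, which limits its precision.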
